A study of Solanum chacoense with 24 samples.

Results

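Chromosome 3 gene models were followed through a cross between a beetle-resistant and a beetle-susceptible line of Solanum chacoense, a wild potato species with a diploid genome. A model was taken as a member where its first chromosome entry in the deposited table was chromosome 3, which held for 2888 of 37740 models. Of these, 275 had 0 counts in every library and 2120 passed the filter on low counts, so 768 were not tested. Leaf RNA was sequenced from 24 plants of 8 lines, 3 plants each: the resistant F2 lines EE501F2_089, EE501F2_516 and EE501F2_641, the susceptible F2 lines EE501F2_093, EE501F2_099 and EE501F2_500, the resistant parent 80-1 (USDA8380-1) and the inbred susceptible parent M6. Per the labels and the design text, resistance to Leptinotarsa decemlineata, the Colorado potato beetle, whose larvae and adults strip potato foliage, was scored in a field trial, and the F2 lines came from its extremes. The sequenced plants were raised from in vitro culture in a growth chamber at 20 °C with 16 h of light and 70% relative humidity, and were sampled 16 weeks after transplanting. The labels name no beetle feeding on them. Plants of a line are taken here to descend from 1 individual, which was not tested. The p-values thus measure the spread between plants of a line and speak of these lines only.

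An F2 plant receives its chromosomes through meioses of the hybrid, where crossing over exchanges stretches between the chromosomes of both grandparental lines. At each position it carries alleles of 80-1 alone, of M6 alone, or of both, and neighbouring positions tend to share that state. A transcript whose level is set by a variant near its own gene then follows the local allele, whereas a transcript set from elsewhere in the genome need not. In leaf RNA, fewer cells of a type and less RNA per cell cannot be told apart.

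Libraries held 23610756 to 40825791 counts, apart from those of EE501F2_093 (60713423 to 77078776), and chromosome 3 took 8.78% to 11.2% of them. The identifiers carry no gene names in the sources used here, so no role is given to any model and the leaf label could not be checked against marker genes. No genome of the table's build was used, and no sequence is shown. None of the models named below overlapped another model in coordinates. Reads of near-identical copies and of antisense transcripts cannot be separated from theirs, because the sources used here state neither a strand setting nor how reads with several matches were treated. Plant 2 of EE501F2_641 stood apart from plants 1 and 3 of its line along parts of the chromosome, and plant 1 or plant 3 did so in other parts. The plants of this line are therefore shown singly, or with their SD, where a result turns on them.

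The parents were compared to find which chromosome 3 models differ between the resistant and the susceptible genotype. Between 80-1 and M6, 745 of 2120 tested models differed (35.1%), 394 higher in 80-1 and 351 higher in M6 (edgeR quasi-likelihood test, Benjamini-Hochberg adjusted p under 0.05 over all models). Over the whole table the share was 37.3%, so the chromosome stood near the background. The median log2 fold change, 80-1 minus M6, was 0.06 on chromosome 3 and 0.01 over all models. Of the models called, 308 differed by under 2-fold, 223 by 2- to 4-fold, 118 by 4- to 16-fold and 96 by 16-fold or more. In all, 437 differed by at least 2-fold (20.6%, against 22.2% of all models), and 214 by at least 4-fold (10.1%, against 11.6%). With 1 plant of every line left out, the count of calls was 449 to 575, lowest without the plants numbered 3.

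The called models were spread along the chromosome. In 5 Mb windows, numbered from the start of the coordinates, the share called was 37.5%, 34.0%, 18.8%, 37.5%, 48.0%, 35.6%, 29.4%, 34.4%, 35.9% and 36.3%. The low share at 10 to 15 Mb rested on 32 tested models with 6 calls, and the high one at 20 to 25 Mb on 98 with 47. Called models had a median length of 1484 bases and a median level of 9.97 CPM (counts per 1000000 of the library's TMM-scaled total), against 1556 bases and 12 CPM for models not called. The 214 models with at least a 4-fold difference were shorter and lower, with medians of 1036 bases and 1.21 CPM.

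**Figure D1:**
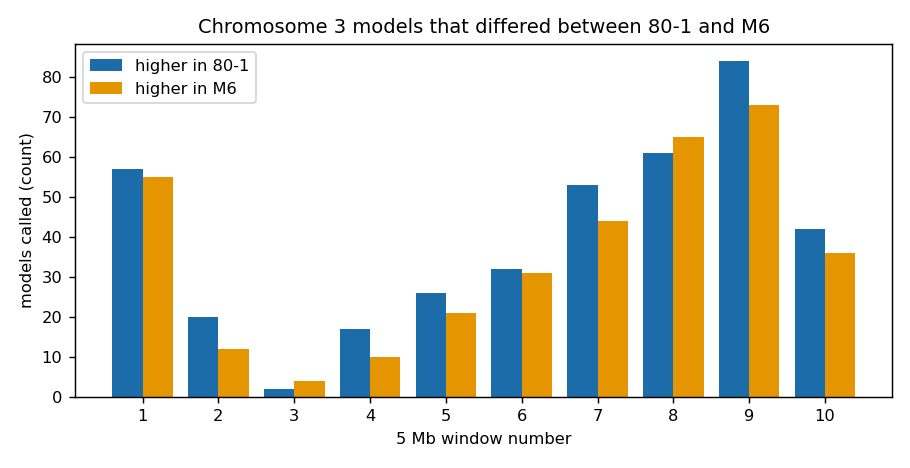
Number of chromosome 3 models called between the parents in each 5 Mb window (x axis, window number), split into models higher in 80-1 (blue bars) and higher in M6 (orange bars). Calls in both directions occur in all 10 windows, from 2 and 4 in window 3 to 84 and 73 in window 9.

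The model g18629 (chromosome 3, 330343 to 331146, minus strand) had 141, 87.6 and 100.4 CPM in the 80-1 plants, against 0.255, 0.308 and 0.340 CPM in M6. The groups did not overlap, and the ratio of summed counts was 365 (95% counting interval 258 to 534; edgeR log2 fold change 8.49 ± 1.33, SE; adjusted p = 4.71e-05). Among the F2 lines it averaged 0.681 CPM in EE501F2_089, 8.05 in EE501F2_516, 113 in EE501F2_641, 1.44 in EE501F2_093, 0.445 in EE501F2_099 and 43.0 in EE501F2_500. Within EE501F2_641 the values were 156, 0.600 and 183 CPM, and its second plant stood at the level of M6 and the other two above every 80-1 plant. Low and high levels thus occurred in lines of both resistance classes.

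The model g8701 (23546873 to 23554533, plus strand) had 13.3, 14.8 and 9.21 CPM in 80-1, against 0.0637, 0 and 0 CPM in M6, where 2 reads were counted in all. That is a ratio of 658 with a counting interval of 182 to 5443 (adjusted p = 6.32e-06, edgeR). Its means were 8.66 CPM in EE501F2_516 and 6.08 CPM in EE501F2_641, and from 0.0970 to 0.733 CPM in the other 4 F2 lines. Once more the second plant of EE501F2_641 was low, with 0.164 CPM beside 5.39 and 12.7 CPM.

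In the other direction, g5498 (9956118 to 9964068, plus strand) had 0.116, 0.0422 and 0 CPM in 80-1, against 14.1, 19.2 and 15.6 CPM in M6. Without overlap between the parents, the log2 fold change was -8.13 ± 0.58 (SE, adjusted p = 2.38e-09, edgeR). No F2 line came down to the level of 80-1: their means ran from 4.09 CPM in EE501F2_500 to 22.0 CPM in EE501F2_093. The model g35820 (30840703 to 30841870, minus strand) had 0.966, 1.18 and 1.72 CPM in 80-1, against 282, 114 and 137 CPM in M6 (log2 fold change -7.11 ± 0.75, SE, adjusted p = 4.09e-07, edgeR). All F2 means lay below M6, the highest being 55.7 ± 30.5 CPM in EE501F2_093 and 21.0 ± 20.1 CPM in EE501F2_516 (SD, n = 3 each), and the other 4 lines had 0.320 to 2.35 CPM.

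To place each F2 line between its parents, a parental level was computed for the 214 models with at least a 4-fold difference: the CPM of a line minus that of M6, divided by the CPM of 80-1 minus that of M6. It is 0 at the M6 level and 1 at the 80-1 level, and an F2 line that sums equal shares of both parents would stand at 0.5. Medians over 5 Mb windows with at least 5 such models could be had for 9 of 10 windows, since window 3 held none. A median under 0.25 is called M6 level here, over 0.75 80-1 level, and anything between intermediate. Neighbouring windows of 1 state form a block. The level is a description with no test. The parents set its scale, so values of the 6 lines share those libraries.

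Over the whole chromosome, the median level was 0.684 in EE501F2_516, 0.526 in EE501F2_641, 0.322 in EE501F2_089, 0.5 in EE501F2_500, 0.166 in EE501F2_093 and 0.136 in EE501F2_099. The SD over the 3 plants was 0.0497, 0.113, 0.0576, 0.0195, 0.0356 and 0.0517 in the same order. EE501F2_516 lay highest, EE501F2_093 and EE501F2_099 lowest and within their plants' spread of each other, as EE501F2_641 and EE501F2_500 were. On the other chromosomes together, the medians were 0.441, 0.513, 0.559, 0.465, 0.464 and 0.317. The 3 lines lowest on chromosome 3 were thus all higher elsewhere, a difference that was not tested.

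**Figure D2:**
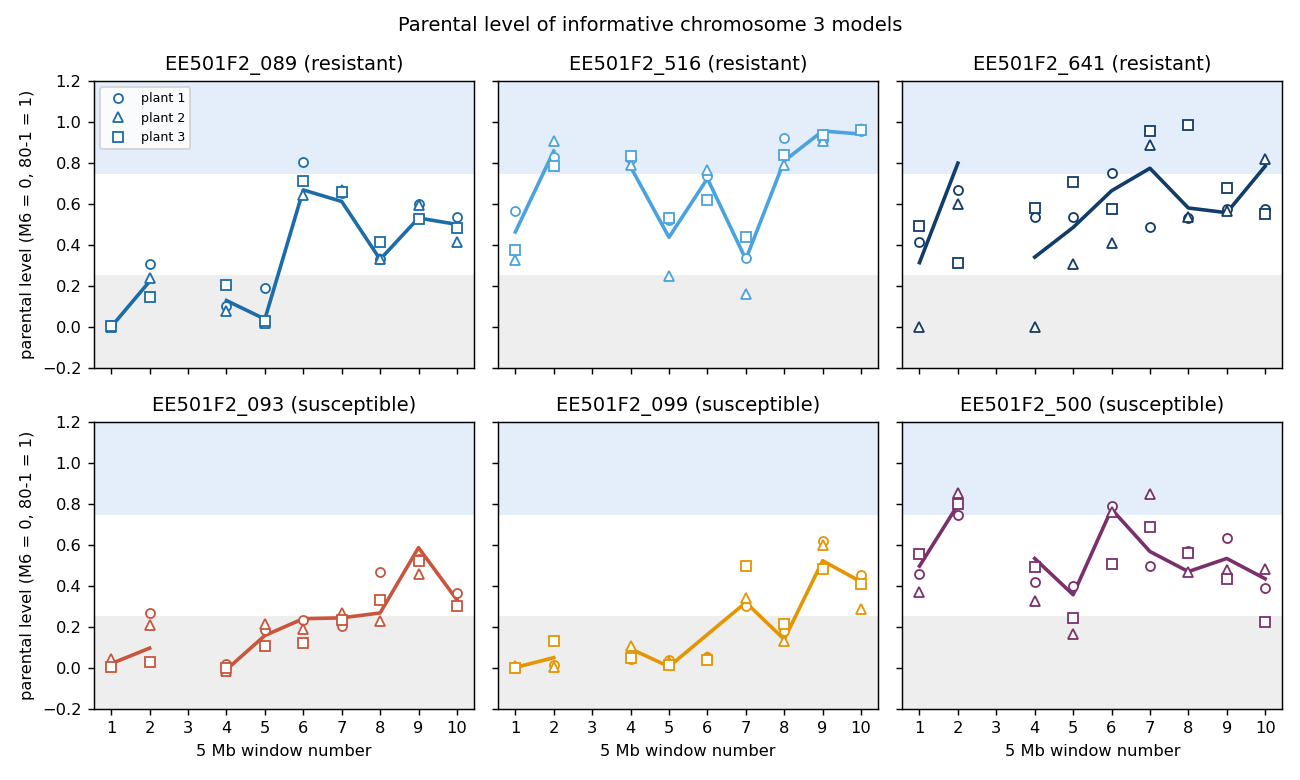
Median parental level (y axis, M6 = 0 and 80-1 = 1) of chromosome 3 models that differed at least 4-fold between the parents, in 9 windows of 5 Mb (x axis, window number) for the 6 F2 lines. Lines join medians of the mean over 3 plants, symbols are medians of single plants, grey and blue bands mark the M6 level and the 80-1 level, and the plants of EE501F2_641 lie farthest apart.

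EE501F2_089 (resistant) held 2 M6-level blocks on the first part of the chromosome. They spanned 0 to 10 Mb, with a level of 0.00453 over 60 models (plants 0.0209, 0.00544 and 0.0254), and 15 to 25 Mb, with 0.0812 over 25 models (plants 0.101, 0.0299 and 0.136). The first 5 Mb gave 49 of the 60 models. At 5 to 10 Mb alone the level was 0.222 over 11 models, with plants at 0.307, 0.236 and 0.143, so that plant 1 was intermediate. There, 6 models higher in 80-1 stood at 0.0589 and 5 higher in M6 at 0.571. From 25 to 50 Mb it was intermediate at 0.517 over 129 models, with plants at 0.598, 0.482 and 0.512. No window reached the 80-1 level, and no window had plants more than 0.4 apart.

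EE501F2_516 (resistant) reached the 80-1 level in 5 windows and the M6 level in none. Its longest block at 80-1 level ran from 35 to 50 Mb at 0.95 over 87 models, with plants at 0.923, 0.920 and 0.932. Single models scattered here too. Of the 87, 52, 51 and 52 were at 80-1 level in plants 1, 2 and 3, and 23, 25 and 25 at M6 level. The windows at 5 to 10 Mb and 15 to 20 Mb were at 80-1 level too, at 0.858 over 11 models and 0.781 over 9. The first 5 Mb was intermediate at 0.463, as were 20 to 35 Mb at 0.569 over 58 models.

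By the mean over plants, EE501F2_641 (resistant) had 3 windows at 80-1 level, 6 intermediate and none at M6 level, but its plants did not share a profile. They lay more than 0.4 apart in 4 of 9 windows, against none in each of the other 5 lines. In the first 5 Mb the plants stood at 0.416, 0 and 0.493, and at 15 to 20 Mb at 0.536, -0.00183 and 0.581. Plant 2 was at M6 level there while plants 1 and 3 were intermediate. At 35 to 40 Mb it was plant 3 that stood apart, with plants at 0.529, 0.537 and 0.985. In the second window the line's median of 0.799 lay above all 3 plants' own medians (0.667, 0.598 and 0.312), since the mean over plants was taken model by model. Its state in that window does not describe a single plant. In its other windows at 80-1 level, the plants stood at 0.485, 0.89 and 0.954 (30 to 35 Mb, line 0.774) and at 0.577, 0.821 and 0.552 (45 to 50 Mb, line 0.784), so that plant 1 was intermediate in both and plant 3 in the last. Without plant 2, the median level of the line over the chromosome was 0.588, against 0.526 with it. Plants 1 and 3 of this line were not left out singly. Whether these plants share a genotype was not tested.

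The susceptible lines EE501F2_093 and EE501F2_099 both held the M6 level over the first 2 windows, at 0.0296 and 0.00362 over 60 models. At 5 to 10 Mb alone EE501F2_093 stood at 0.0963 over 11 models, with plants at 0.268, 0.208 and 0.0276. EE501F2_099 stood at 0.0497 there, with plants at 0.0136, 0.00532 and 0.13. EE501F2_093 kept it from 15 to 35 Mb at 0.123 over 67 models and was intermediate from 35 to 50 Mb at 0.404 over 87 models. EE501F2_099 kept the M6 level from 15 to 30 Mb at 0.0591 over 49 models and at 35 to 40 Mb at 0.139. That line was intermediate at 30 to 35 Mb and from 40 to 50 Mb, at 0.319 and 0.462. EE501F2_500, also susceptible, had no window at M6 level. It was at 80-1 level at 5 to 10 Mb (0.796) and 25 to 30 Mb (0.775), and intermediate in its other 7 windows, with 0.497 in the first and 0.470 from 30 to 50 Mb.

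Across the first 5 Mb, 49 models gave levels of 0 in EE501F2_089, 0.0207 in EE501F2_093 and 0.00187 in EE501F2_099, and of 0.463 in EE501F2_516, 0.313 in EE501F2_641 and 0.497 in EE501F2_500. Single models scattered around these medians. In the EE501F2_089, EE501F2_093 and EE501F2_099 plants, 35 to 39 of the 49 models were at M6 level and 1 to 8 at 80-1 level. In the EE501F2_516 and EE501F2_500 plants, 15 to 21 models were at M6 level and 9 to 18 at 80-1 level. Plant 2 of EE501F2_641 had 34 models at M6 level, and plants 1 and 3 had 20 each.

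**Figure D3:**
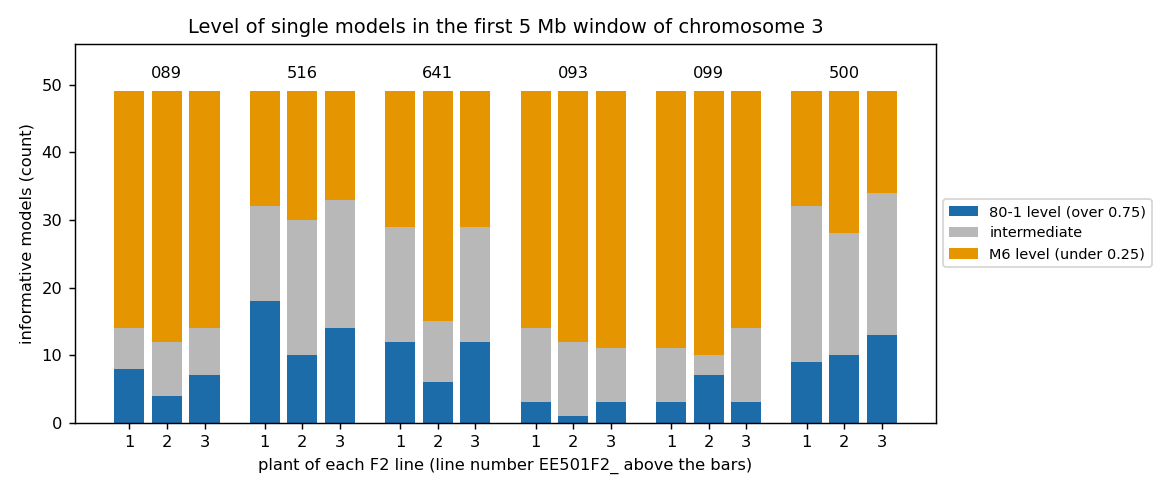
Number of the 49 models of the first 5 Mb window at 80-1 level (blue), intermediate (grey) and at M6 level (orange), 1 bar per plant, for the 3 resistant F2 lines (left) and the 3 susceptible ones (right). Plant 2 of EE501F2_641 has 34 models at M6 level, against 20 in each of the other plants of that line.

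The F2 lines were also set against each other at the same 49 models. The parental comparison chose these models and their direction, and the parental libraries share in the estimate of the spread. Among the lines at M6 level, EE501F2_089 and EE501F2_099 differed at 7 models and EE501F2_093 and EE501F2_099 at 10. EE501F2_089 and EE501F2_093 differed at 14, of which 9 were shifted toward 80-1 in EE501F2_089, although its median lay 0.0207 below that of EE501F2_093. Among the intermediate lines, EE501F2_516 and EE501F2_500 differed at 10, 5 in each direction, and EE501F2_641 and EE501F2_500 at 10, but EE501F2_516 and EE501F2_641 at 23, of which 16 were shifted toward 80-1 in EE501F2_516. Lines of like median thus still differed at single models, at 14.3% to 46.9% of the 49. In each of these pairs that share lay below the pair's own share over all models, which is given below. The 2 sets are unlike, here and below, since the 49 were chosen by the parental comparison. Chromosome 3 models at least 4-fold apart also had a low median level, 1.21 CPM. The share among such models on other chromosomes was not counted. EE501F2_516 and EE501F2_099 differed at 29 of the 49, of which 28 were shifted toward 80-1 in EE501F2_516. EE501F2_093 and EE501F2_500 differed at 27, all of them shifted toward 80-1 in EE501F2_500. EE501F2_641 and EE501F2_093 differed at 22, of which 19 were shifted toward 80-1 in EE501F2_641, and at 21 without plant 2 of that line. The other 6 pairs, each of a line at M6 level with an intermediate one, differed at 24 to 32 models, or 49.0% to 65.3% of the 49. Over all models, the share called in these 6 pairs was 13.9% (EE501F2_099 and EE501F2_500) to 49.4% (EE501F2_516 and EE501F2_093). The level and the calls use the same F2 libraries, so that these counts show how many single models carry a difference and are no second piece of evidence. Over all 2120 models, the share called was 14.1% to 53.8% over the 15 pairs of F2 lines, with a median of 30.4%, against 13.9% to 53.4% with a median of 30.7% over all models. For the 9 pairs named here, in the order given, it was 18.2%, 23.1%, 33.6%, 33.7%, 29.4%, 53.8%, 35.6%, 28.7% and 22.6%, against 21.0%, 25%, 35.6%, 33.4%, 30.7%, 53.4%, 31.3%, 27.8% and 21.9% of all models.

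Models read in 1 parent alone were followed in the F2 plants as counts of reads. On chromosome 3, 23 models at least 4-fold apart were read in 80-1 with 0 counts in M6, and 13 in M6 with 0 counts in 80-1. Such models were not counted over the whole table. Neither their number nor the excess in 80-1 can therefore be called particular to the chromosome. None averaged 5 CPM, the minimum set for naming, and those with at least 1 CPM (10 and 2) were singled out after their values were seen. In the first 5 Mb, 4 of them (g18600, g13149, g13165 and g23155) were read in 80-1. Their summed CPM was 0.291, 0.0357 and 0.133 in the EE501F2_089 plants, 9.34, 3.18 and 7.47 in EE501F2_516, and 6, 0.164 and 5.53 in EE501F2_641. It was 0.0707, 0.165 and 0.227 in EE501F2_093, 0.170, 0.120 and 0.0735 in EE501F2_099, and 5.29, 5.23 and 6.77 in EE501F2_500, against 14.5, 12.9 and 11.2 in 80-1 and 0 in all M6 plants. Every plant of EE501F2_516 and EE501F2_500 and plants 1 and 3 of EE501F2_641 thus lay above 3 CPM, and every other F2 plant lay below 0.3 CPM. A few reads were counted in F2 plants at the M6 level, 1 to 15 per plant over the 4 models, where M6 had none.

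Of these, g23155 (2635138 to 2638851, minus strand) had 4.71, 4.73 and 3.98 CPM in 80-1 and 0 counts in M6. That is at least 158-fold higher in 80-1 when 3 counts are allowed over the M6 plants (adjusted p = 1.94e-05, edgeR). For g18600 (52072 to 55778, plus strand), with 3.98, 3.93 and 3.10 CPM in 80-1 and 0 counts in M6, the bound was 129.6-fold (adjusted p = 5.66e-06). At the far end of the chromosome, g34746 (44294481 to 44303007, minus strand) had 0 counts in 80-1 and 1.5, 1.13 and 1.24 CPM in M6, at least 31.2-fold lower in 80-1 (adjusted p = 6.24e-05). It also had 0 counts in all 3 plants of EE501F2_516, a line at 80-1 level there, which allows up to 0.0305 CPM. The EE501F2_641 plants had 0.976, 0.109 and 1.17 CPM, and the other 4 F2 lines averaged 0.331 to 1.97 CPM. The model g29165 (41577181 to 41578620, minus strand) had 0 counts in 80-1 and 0.828, 1.18 and 1.16 CPM in M6, at least 26.2-fold lower in 80-1 (adjusted p = 6.63e-05). EE501F2_516 averaged 0.0533 CPM. The EE501F2_641 plants had 2.7, 0.491 and 0.293 CPM, 1 above and 2 below every M6 plant, and the other 4 F2 lines averaged 1.39 to 2.44 CPM, above the M6 mean of 1.06 CPM. These bounds and intervals cover counting error only. The models were drawn from those already called between the parents, so their adjusted p could not lie above the threshold.

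The other 6 of these 12 models, all read in 80-1 and not in M6, did not all follow the level of their window. For g11248 (6295104 to 6296055), EE501F2_516 averaged 5.71 CPM and EE501F2_500 3.63 CPM, above the 1.2 CPM of 80-1, while EE501F2_089, EE501F2_093 and EE501F2_099, at M6 level there, had at most 0.061 CPM and the EE501F2_641 plants 2, 1.04 and 0.461 CPM. For g2154 (21318127 to 21318904) those 3 lines had at most 0.0139 CPM, against 1.37 CPM in 80-1, and the EE501F2_641 plants had 0.325, 0 and 1.01 CPM. In contrast, g11218 (5566785 to 5568745) averaged 1.44 CPM in EE501F2_089 and 1.2 CPM in EE501F2_093, close to the 1.59 CPM of 80-1, although the median of their window was at M6 level. It had 0 counts in every plant of EE501F2_641.

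Similarly, g38835 (29697362 to 29697759) was read in every F2 line, at 0.713 to 1.40 CPM against 1.29 CPM in 80-1, including EE501F2_093 and EE501F2_099, whose window was at M6 level. Every F2 line also had reads of g27697 (42322487 to 42324022), at 1.12 to 3.77 CPM against 1.07 CPM in 80-1. The model g28505 (36100038 to 36104578) had 2.47 CPM in 80-1 but 0, 1 and 0 counts in the EE501F2_516 plants, whose window was at 80-1 level, and 1.32 CPM in EE501F2_089. The other 4 F2 lines had 0.0119 to 0.199 CPM. Single models read in 1 parent thus went with their window in some cases and against it in others.

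The blocks depend on which models carry them. In several windows the level differed between models higher in 80-1 and models higher in M6. At 30 to 35 Mb, EE501F2_516 stood at -0.0411 over 7 models higher in 80-1 and at 0.845 over 11 higher in M6. At 35 to 40 Mb the same line had 0.117 over 14 and 0.995 over 19. Over the whole chromosome, models higher in M6 gave the greater level in every F2 line, as in EE501F2_516 with 0.804 against 0.539 for models higher in 80-1. The window at 40 to 45 Mb had 0.505 over models higher in 80-1 and 0.545 over models higher in M6 in EE501F2_089, and 0.589 and 0.585 in EE501F2_093. In EE501F2_516, at 80-1 level in that window, these values were 0.64 and 0.972.

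The 531 models called between the parents with less than a 4-fold difference did not give the same order of lines. Their median level over the chromosome was 0.275 in EE501F2_089, 0.171 in EE501F2_516, 0.621 in EE501F2_641, 0.466 in EE501F2_093, 0.169 in EE501F2_099 and 0.341 in EE501F2_500. EE501F2_516, highest by the 214 models, was next to lowest by these. In the first window it stood at 0.0605 over 63 such models, against 0.463 over the 49 with larger differences. The blocks above are therefore a statement about the models at least 4-fold apart.

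Each F2 line was also tested against each parent, with the parental libraries shared by all these comparisons. Against 80-1, EE501F2_089 differed at 927 of 2120 models (43.7%; 41.1% of all models in the table), EE501F2_516 at 1158 (54.6%; 54.9%) and EE501F2_641 at 704 (33.2%; 32.8%). EE501F2_093 differed from 80-1 at 519 (24.5%; 21.7%), EE501F2_099 at 815 (38.4%; 37.1%) and EE501F2_500 at 802 (37.8%; 38.7%). Against M6, the counts were 746 in EE501F2_089 (35.2%; 39.7%), 1060 in EE501F2_516 (50%; 48.7%) and 874 in EE501F2_641 (41.2%; 40.6%). The susceptible lines differed from M6 at 357 in EE501F2_093 (16.8%; 21.3%), 396 in EE501F2_099 (18.7%; 20.9%) and 712 in EE501F2_500 (33.6%; 33.3%). EE501F2_089, EE501F2_093 and EE501F2_099, the lines with M6-level blocks, had a smaller share on chromosome 3 than in the table against M6 and a larger one against 80-1, by 1.3 to 4.5 percentage points, which was not tested. EE501F2_516 had the highest share of the 6 lines against each parent, although its level from 35 to 50 Mb was near that of 80-1. Counts for EE501F2_641 were 373 to 563 against 80-1 when 1 plant of every line was left out, and 281 when only the 6 libraries compared were fitted.

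Models outside the range of both parents were counted where a line differed from 80-1 and from M6 in the same direction. There were 407 in EE501F2_089 (19.2%, as over all models at 19.2%), 693 in EE501F2_516 (32.7%; 31.1%), 336 in EE501F2_641 (15.8%; 14.3%), 86 in EE501F2_093 (4.06%; 4.05%), 187 in EE501F2_099 (8.82%; 7.76%) and 324 in EE501F2_500 (15.3%; 14.4%). All these shares lay near the background. The model farthest above both parents was g6056 (26090886 to 26091949, plus strand), with 14.3, 2.62 and 5.36 CPM in EE501F2_641, against 0.0386, 0.253 and 0.126 CPM in 80-1 and 0.0955, 0.231 and 0.113 CPM in M6. Its log2 fold change was 5.72 ± 0.96 over 80-1 and 5.60 ± 0.92 over M6 (SE, adjusted p = 0.000176 and 9.30e-05, edgeR). EE501F2_089 was high as well, at 4.32, 8.91 and 3.43 CPM, EE501F2_516 had 0.223, 1.70 and 0.383 CPM, and no susceptible plant exceeded 0.124 CPM.

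Farthest below both parents was g12074 (38626336 to 38628159, minus strand), with 0.0278, 0.225 and 0.0958 CPM in EE501F2_516, against 47.2, 45 and 50.3 CPM in 80-1 and 5.95, 10.2 and 7.67 CPM in M6. The log2 fold change was -8.68 ± 0.66 against 80-1 and -6.10 ± 0.64 against M6 (SE, adjusted p = 4.60e-09 and 2.59e-07, edgeR). The EE501F2_641 plants had 2.84, 2.07 and 0.210 CPM, and the highest mean of an F2 line was 12.9 CPM in EE501F2_099, below that of 80-1.

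Whether any model's level goes with resistance was asked by setting the resistant against the susceptible F2 lines. With the line as the replicate, 0 of 2137 tested chromosome 3 models differed between 3 resistant and 3 susceptible lines (edgeR on counts summed per line; 3 of all 21184 models were called, 0.0142%). The smallest adjusted p on the chromosome was 0.244, and 158 models had an unadjusted p under 0.05 (7.39%, against 7.40% of all models). DESeq2 on the same sums called 58 of 2132 (2.72%, against 2.56% of all models). The median parental level averaged 0.510 ± 0.182 over the resistant lines and 0.267 ± 0.202 over the susceptible ones (SD, n = 3 lines each). That difference of 0.243 was not significant (exact permutation test over lines, two-sided, p = 0.2, adjusted over 12 chromosomes 0.6), and 3 lines against 3 cannot give a p below 0.1.

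In a single window, at 45 to 50 Mb, all resistant lines lay above all susceptible lines, with 0.5 to 0.941 against 0.332 to 0.435 over 14 models. Over the table, 14.6% of 96 windows had that order and 1.04% the reverse. Single plants overlapped there, since EE501F2_089 had a plant at 0.416 and EE501F2_500 a plant at 0.484.

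A criterion that rests on the spread between plants asked for calls of 1 sign in each of the 9 possible pairings of resistant with susceptible lines. It was met by 20 of 2120 models (0.943%; 1.26% of all models), 12 higher and 8 lower in the resistant lines. Of these 20, 18 lay between 25 and 45 Mb, where 1310 of the 2120 tested models lie. Of the 20, 9 also differed between the parents in the same direction (0.425%; 0.480% of all models), 7 higher and 2 lower in 80-1, and 0 in the opposite direction (0.119% of all models). The remaining 11 were not called between the parents. The count of 20 fell to 4 without the plants numbered 2 and to 1 without the plants numbered 3. It was 85 without line EE501F2_641, but fewer pairs then had to be called, so that the count could not fall. Without plant 2 of that line alone it was 20, with 17 models shared.

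Among the 20, g28607 (37318859 to 37319470, plus strand) was chosen both for its class difference and for its p in the worst of the 9 pairs. It had 96.6, 68.5 and 94.1 CPM in EE501F2_089, 658, 468 and 430 CPM in EE501F2_516 and 107, 287 and 88.4 CPM in EE501F2_641. The susceptible plants had 32.5, 19.6 and 12.6 CPM in EE501F2_093, 1.28, 0.766 and 1.54 CPM in EE501F2_099 and 2.61, 11.5 and 1.99 CPM in EE501F2_500. Every resistant plant lay above every susceptible plant, and the mean of the resistant lines over that of the susceptible ones gave a log2 fold change of 5.22 ± 0.36 (SE, adjusted p = 1.97e-09, edgeR on plants). The parents differed alike, with 135, 180 and 179 CPM in 80-1 and 1.59, 1.00 and 2.72 CPM in M6 (log2 fold change 6.54 ± 0.66, SE, adjusted p = 2.39e-07). EE501F2_516 exceeded 80-1 in all 3 plants. With lines as replicates the adjusted p was 0.401. This model and the others named below from the 20 were chosen for calls in all 9 pairs. The order of their class means and the small p on plants followed from that choice. A lack of overlap between the classes was favoured by it. The p on plants speaks of these lines only.

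The model g28533 (36364357 to 36365022, minus strand) lies in the same window. It had 19.1, 16.7 and 19.7 CPM in EE501F2_089, 201, 48.6 and 84.7 CPM in EE501F2_516 and 8.32, 122 and 12 CPM in EE501F2_641, and the highest susceptible plant, of EE501F2_093, had 4.47 CPM. Again the classes did not overlap (log2 fold change 5.90 ± 0.50, SE, adjusted p = 2.43e-08, edgeR on plants; adjusted p = 0.348 over line sums). In the parents it had 60.2, 90.3 and 117 CPM in 80-1, against 1.27, 1.33 and 1.84 CPM in M6.

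The model g9407 (32329755 to 32339923, minus strand) had a small difference with a small spread. It averaged 218 ± 30.3 CPM in EE501F2_089, 171 ± 4.60 in EE501F2_516 and 192 ± 54.2 in EE501F2_641 (plants 154, 168 and 254), against 108 ± 5.23 in EE501F2_093, 75.9 ± 3.98 in EE501F2_099 and 82.3 ± 5.33 in EE501F2_500 (SD, n = 3 each). All 9 resistant plants exceeded all 9 susceptible plants, at a log2 fold change of 1.13 ± 0.09 (SE, adjusted p = 7.59e-09, edgeR on plants). Over line sums, with the line as the replicate, the adjusted p was 0.271 (edgeR). The parents had 138, 126 and 128 CPM in 80-1 and 75.5, 92.5 and 87.3 CPM in M6 (log2 fold change 0.62 ± 0.15, SE, adjusted p = 0.00278). Resistant lines thus averaged above 80-1. Without the plants numbered 1, the parental log2 fold change was 0.48 and no longer called.

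Among models lower in the resistant lines, g26086 (42809724 to 42816489, plus strand) averaged 1.59, 2.68 and 1.70 CPM in EE501F2_089, EE501F2_516 and EE501F2_641 (plants of the last 2.74, 1.47 and 0.88), and 4.75, 8.53 and 6.98 CPM in EE501F2_093, EE501F2_099 and EE501F2_500. The log2 fold change was -1.76 ± 0.19 (SE, adjusted p = 8.21e-07, edgeR on plants). The parents had 4.33, 5.79 and 7.04 CPM in 80-1, against 6.43, 11.4 and 11.2 CPM in M6, which overlapped and was not called (adjusted p = 0.0676). All resistant lines were below both parents' means. The model g12071 (38611679 to 38613648, minus strand) likewise averaged 19.4, 12.7 and 16.8 CPM in the resistant lines (EE501F2_641 plants 22.9, 20.9 and 6.62), and 35.2, 50.8 and 35.5 CPM in the susceptible ones (log2 fold change -1.32 ± 0.17, SE, adjusted p = 4.40e-06). Its parental means were 43.8 CPM in 80-1 and 48.9 CPM in M6, so neither parent had the low level of the resistant lines. Without plant 2 of EE501F2_641 the log2 fold changes were -1.74 for g26086 and -1.39 for g12071, 4.97 for g28607 and 5.15 for g28533, all still called. Line sums gave adjusted p of 0.294 for g26086 and 0.271 for g12071.

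The models lower in resistant lines and called between the parents as well were g21520 (17401443 to 17404619, plus strand) and g16872 (43243655 to 43246571, plus strand). The first averaged 7.57, 10 and 10.7 CPM in EE501F2_089, EE501F2_516 and EE501F2_641 (plants of the last 14.6, 9.81 and 7.67), against 19.6, 20.9 and 22.3 CPM in EE501F2_093, EE501F2_099 and EE501F2_500. Its parental log2 fold change was -0.70 ± 0.21 (SE, adjusted p = 0.0110, edgeR), with 16.1 ± 0.421 CPM in 80-1 and 26.2 ± 4.73 CPM in M6 (SD, n = 3 each). The second averaged 2.89, 1.62 and 2.46 CPM in the resistant lines and 6.13, 5.69 and 4.88 CPM in the susceptible ones, with 5.97 ± 0.403 CPM in 80-1 and 10.8 ± 1.32 CPM in M6 (log2 fold change -0.85 ± 0.23, SE, adjusted p = 0.00592). Both parental calls were lost when 1 plant of every line was left out, for g21520 without the plants numbered 2 and for g16872 without those numbered 1 or 3.

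**Figure D4:**
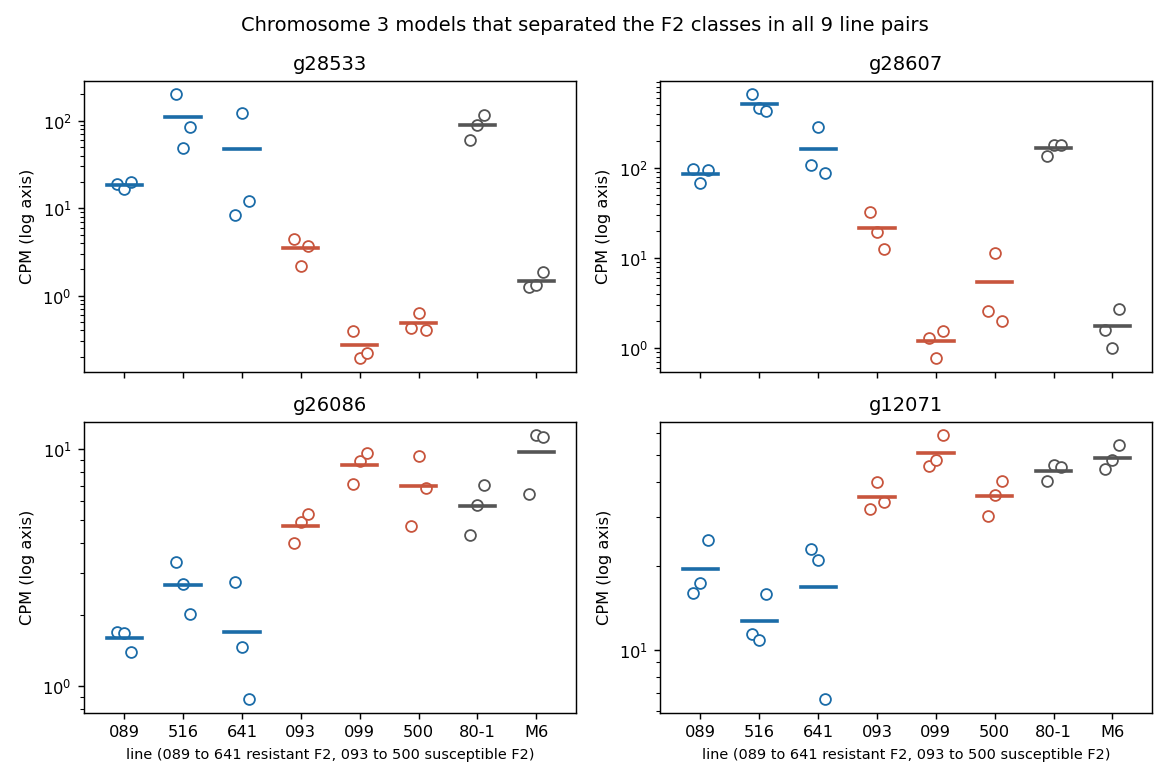
Level (y axis, CPM, log axis) of 4 chromosome 3 models called with 1 sign in each of the 9 pairings of resistant with susceptible F2 lines, with 1 point per plant and a bar at the mean of 3 plants, for the F2 lines (named by their last 3 digits) and the parents (grey). The resistant lines (blue) lie above the susceptible lines (red) in g28533 and g28607 and below them in g26086 and g12071.

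The F2 class difference was set against the parental difference in 1 contrast over all lines, chosen after the data had been seen. It was called for 696 of 2120 models (32.8%; 34.7% of all models), near the background. Neither of the most abundant chromosome 3 models per length was called between the classes on line sums, where no model of the chromosome was called. The first, g10491 (3770901 to 3774188, minus strand), averaged 9350 CPM per kilobase in EE501F2_089, 2979.9 in EE501F2_516, 13653 ± 3257 in EE501F2_641 (SD, n = 3), 13504 in EE501F2_093, 7244 in EE501F2_099 and 5097 in EE501F2_500, against 13247 in 80-1 and 8157 in M6. Its log2 fold change between the classes was -0.01 ± 0.81 (SE; adjusted p = 0.999, edgeR on line sums). The second, g26073 (42700581 to 42702257, minus strand), ran from 1868 CPM per kilobase in EE501F2_516 to 5829 in EE501F2_641, with 4102 in 80-1 and 2334 in M6 (log2 fold change 0.81 ± 0.26, SE, adjusted p = 0.0195, edgeR). That call was lost without the plants numbered 1 or 3. Between the classes its log2 fold change was 0.52 ± 0.59 (SE; adjusted p = 0.999, edgeR on line sums), with line means of 6133 ± 3027 CPM for resistance and 4258 ± 644 CPM for susceptibility (SD, n = 3 lines each).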

How the data were processed

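RNA of leaflets from 24 plants was sequenced. Counts came as 1 deposited table of whole numbers, not normalized, with a row for each gene model and the columns of featureCounts output, per the file headers. It also holds each model's length in bases, which the authors deposited and which served only for levels per kilobase. Per the submitters' processing notes, the tools were Trimmomatic 0.35, STAR 2.6.0, Subread, featureCounts 1.5.3 and DESeq2, with no role or order. The sources used here do not give the genome build, annotation, strand setting or handling of multi-mapping reads. The table's own coordinates are printed, counted from 1. The 7954 models on unplaced sequence had 0 counts in every library.

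Counts were analysed with edgeR 4.0.16 in R 4.3.3. filterByExpr left 21028 models, libraries were scaled by TMM, and the quasi-likelihood fit took 1 mean for each line and all 24 libraries together, which left 16 residual degrees of freedom. Benjamini-Hochberg adjustment ran over all models tested, and a call is an adjusted p under 0.05. Standard errors are approximate (log2 fold change over the root of F). Counts summed per line were tested in the same way, 3 resistant against 3 susceptible lines. Exact permutation tests used SciPy 1.17.1. The scripts were tested on simulated counts. Plants within lines varied beyond counting noise (chi-square per degree of freedom 11.1 to 222 over 24 pairs), so each library was kept.

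Members, lists and tests were chosen with earlier results of these data known. Per comparison, up to 2 models per direction were named, given 5 CPM or more in the group where they were higher: those with the largest fold change between parents or between classes, or the smallest p in the worst of the 9 pairs for models called in parents and F2 alike. The models farthest outside both parents and the most abundant per length were added. Models read in 1 parent alone, the single-plant counts of the first window, the contrast of class against parental difference, the level over models less than 4-fold apart and the fits without plant 2 of EE501F2_641 were chosen after seeing the data. Alternatives tried were RLE size factors, no filter, DESeq2 1.42.0, a replicate block, leaving out plants or lines, fits on 6 libraries, and other settings of the parental level.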

Additional observations from a re-analysis of the deposited data

Results flagged for a closer look

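For 7 of the named models, the difference between the resistant and susceptible F2 lines departed from the difference between 80-1 and M6, by a contrast of the first minus the second on the log2 scale (edgeR on plants, 696 of 2120 chromosome 3 models called). For g8701 the value was -6.30 (adjusted p = 0.00132), with a class difference of 2.79 and a parental difference of 9.10. For g18629 it was -7.00 (adjusted p = 0.000641), with 1.49 and 8.49. The contrast of g5498 was 8.31 (adjusted p = 5.02e-09), with 0.18 and -8.13, and that of g35820 was 6.11 (adjusted p = 1.92e-05), with -1 and -7.11. These 4 models were named for the size of their parental difference, which leaves little room for another outcome.

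The other 3 were named for the classes. For g26086 the contrast was -1 (adjusted p = 0.0425), with a class difference of -1.76 and a parental difference of -0.76. For g12071 it was -1.16 (adjusted p = 0.00984), with -1.32 and -0.16. For g9407 it was 0.52 (adjusted p = 0.0243), with 1.13 and 0.62. These 3 models were named for their calls between the classes, so that a class difference larger than the parental one is favoured by the choice and is given as a description. The groups compared hold 3 plants per line and are too small for a search for single outlying plants.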

How the results depend on the processing

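Of the alternatives to the summary results, 205 values stayed within the limits set and 90 moved beyond them. The limits were 1.5 times a count or share, the plants' SD for a line's level, and the sign alone for the class difference in level. Of those for the named models, 125 kept direction and side of the threshold, 6 lost the call, 1 gained it (g10491 between the parents with DESeq2, 0.71) and 0 reversed. The cause of the moves was not tested. DESeq2 was not run for the class contrast of the named models. RLE size factors shifted the median parental log2 fold change by 0.006.

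With 1 plant left out, of every line or of EE501F2_641 alone, calls between 80-1 and M6 were 449 to 575. Against 80-1 they were 565 to 677 in EE501F2_089, 373 to 573 in EE501F2_641, 260 to 335 in EE501F2_093, 516 to 599 in EE501F2_099 and 485 to 607 in EE501F2_500. Against M6 they were 443 to 596, 544 to 753, 147 to 246, 140 to 207 and 423 to 444 in those lines. Models outside both parents were 210 to 298 in EE501F2_089, 450 to 576 in EE501F2_516, 158 to 280 in EE501F2_641, 32 to 53 in EE501F2_093, 43 to 95 in EE501F2_099 and 149 to 178 in EE501F2_500. The count over all 9 pairs was 1 to 20, that of models alike in the parents 0 to 9, and the median share over F2 pairs 15% to 21.9%. Without plant 2 of EE501F2_641, 17 of the 20 models were shared. The chromosome level was 0.106 to 0.229 in EE501F2_093 and 0.498 to 0.528 in EE501F2_500, and 9.26% to 18.5% of line windows were at 80-1 level. The parental call of g9407 was lost at 0.48, of g21520 at -0.60, of g16872 at -0.84 and -0.83, and of g26073 at 0.78 and 0.80.

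With only the 6 libraries compared, EE501F2_641 differed from 80-1 at 281 and from M6 at 410 models, and EE501F2_093 at 810 and 566. Leaving out a line takes its pairs out of the 9, which loosens the criterion, so that the count can only stay or rise. Without line EE501F2_516, EE501F2_641, EE501F2_093 or EE501F2_500 the count over the remaining pairs was 37, 85, 39 or 61. Models alike in the parents, by the same looser criterion, were 14 without EE501F2_089 and 19, 20, 18 and 28 without those 4 lines. DESeq2 called 58 models on line sums (2.72%, against 2.56% of all models), and edgeR 0.

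On the log2 scale the chromosome level was 0.382 in EE501F2_089, 0.630 in EE501F2_516, 0.190 in EE501F2_099 and 0.542 in EE501F2_500. With models at least 2-fold apart it was 0.458 in EE501F2_516, 0.321 in EE501F2_093, 0.201 in EE501F2_099 and 0.445 in EE501F2_500, and 7.41% of line windows were at 80-1 level, against 18.5%. With models higher in 80-1 it was 0.213, 0.539, 0.373, 0.103, 0.0808 and 0.369 in EE501F2_089, EE501F2_516, EE501F2_641, EE501F2_093, EE501F2_099 and EE501F2_500, and 48.1% of line windows were at M6 level, against 29.6%. With models higher in M6 it was 0.516, 0.804, 0.692, 0.265, 0.344 and 0.720, with 14.6% of line windows at M6 level and 33.3% at 80-1 level, over 48 line windows in place of 54. With at least 1 CPM in the higher parent it was 0.249 in EE501F2_089 and 0.613 in EE501F2_516. The difference between the classes stayed positive, at 0.147 to 0.359 under the alternatives tried, and no exact permutation of 3 lines against 3 gives a p below 0.1.

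Plants with the same number were not paired by the labels, and their deviations correlated at -0.380 to 0.296 over 84 comparisons, 17 of them over 0.1. Of 24 libraries, 6 correlated best with their own number. With the replicate block, the parents differed at 740 models, and 18 models met the criterion of all 9 pairs, 17 of them among the 20. Models at under 1 CPM, many of those that carry the parental level, rest on few reads per plant. A count of 0 over 3 plants allows up to 0.0409 CPM in 80-1 and 0.0284 CPM in M6.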

Other observations

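The ends of the blocks could not be placed more finely than the 5 Mb windows, and the blocks were not uniform within. A running median over 11 neighbouring models at least 4-fold apart changed its state 27 times along the chromosome in EE501F2_089, 38 times in EE501F2_516, 25 in EE501F2_641, 15 each in EE501F2_093 and EE501F2_099, and 30 in EE501F2_500. Some changes lay inside blocks. In the 80-1-level block of EE501F2_516 from 35 to 50 Mb, the running median was 0.138 at g12186 (start 39663075). In the intermediate block of EE501F2_089 from 25 to 50 Mb, it was 0.995 at g6101 (start 26906229) and 0.243 at g9390 (start 32213450).

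Single models also lay beyond the parental range in their level. Of the 214 models, 12 in EE501F2_089, 23 in EE501F2_516, 10 in EE501F2_641, 6 in EE501F2_093, 4 in EE501F2_099 and 15 in EE501F2_500 exceeded 1.5, and 17, 11, 9, 16, 17 and 12 models of those lines were below -0.5. These values are descriptions with no test.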
